A study of Rattus norvegicus with 20 samples.

Results

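The circadian clock genes examined here were Arntl, Per1, Per2, Per3, Dbp, Nr1d1 and Nr1d2. They are 7 rows of the 24160 features in the deposited count table, picked by their Ensembl rat gene identifiers, and all 7 rows were present. The identifiers were ENSRNOG00000014448 for Arntl, ENSRNOG00000007387 for Per1, ENSRNOG00000020254 for Per2, ENSRNOG00000018413 for Per3, ENSRNOG00000021027 for Dbp, ENSRNOG00000009329 for Nr1d1 and ENSRNOG00000046912 for Nr1d2. The table used here to look up names holds no Ensembl identifiers, so the names came with the choice of genes and could not be checked.

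The mammalian clock is a feedback loop of transcription that runs in nearly every cell, heart muscle and brain included. ARNTL (also called BMAL1) pairs with CLOCK, binds E-box elements and switches on the Per, Nr1d and Dbp genes. PER proteins, together with cryptochromes, then hold ARNTL and CLOCK back. NR1D1 and NR1D2 (REV-ERB alpha and beta) repress Arntl through RORE elements, and DBP activates genes that carry a D-box. In most tissues Arntl RNA therefore peaks when Dbp and Nr1d1 RNA is low, and the phase of the loop follows the time of day.

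RNA sequencing covered 5 control rats and 5 rats with stress cardiomyopathy (SCM), a transient weakness of the heart muscle after stress. All were male Sprague-Dawley rats of 250 to 300 g, an outbred stock. SCM was produced by immobilization for 6 hours over 7 days, and the labels also say that the rats were anesthetized and assigned to the groups at random. The anesthetic is not named there. Each rat gave 1 library from the brain and 1 from the left ventricle (LV), 20 libraries in 4 groups of 5. The brain region and the hour at which tissue was taken are not given in the sources used here. Whether both groups were sampled at the same hour is thus not known. A difference between SCM and control therefore cannot be assigned to the stress alone. These are bulk tissues, in which fewer cells of a type and less RNA per cell cannot be told apart.

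Before the values, the promoters are shown, because the loop acts through short elements in them. RefSeq gives, for assembly GRCr8, a promoter for all 7 genes (Arntl under its newer symbol Bmal1), and the 250 bases before each start were searched on both strands. The motifs were the E-box CACGTG, the related E-prime box CACGTT, the D-box TTATGTAA or TTACGTAA, and the RORE core TAGGTCA or TGGGTCA. The E-box and the E-prime box cannot match at the same bases of 1 strand. The windows of Arntl, Per2 and Nr1d1 are printed because they hold a match, and capitals mark it. The Nr1d1 gene has 2 starts and both are shown. Lines run 5′ to 3′ on the strand of the gene.
Arntl, chr1:176766078-176766327, plus strand: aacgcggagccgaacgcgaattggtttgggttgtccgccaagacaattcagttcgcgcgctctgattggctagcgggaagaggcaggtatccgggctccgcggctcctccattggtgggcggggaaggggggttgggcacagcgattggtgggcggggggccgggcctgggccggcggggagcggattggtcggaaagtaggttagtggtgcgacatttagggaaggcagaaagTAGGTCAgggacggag
Per2, chr9:99496994-99497243, minus strand: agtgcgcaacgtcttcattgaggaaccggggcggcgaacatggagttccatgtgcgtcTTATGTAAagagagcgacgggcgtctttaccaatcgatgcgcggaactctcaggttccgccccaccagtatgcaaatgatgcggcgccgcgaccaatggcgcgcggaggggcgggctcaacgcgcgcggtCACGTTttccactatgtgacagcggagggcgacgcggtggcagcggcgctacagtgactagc
Nr1d1 start 1, chr10:84231813-84232062, minus strand: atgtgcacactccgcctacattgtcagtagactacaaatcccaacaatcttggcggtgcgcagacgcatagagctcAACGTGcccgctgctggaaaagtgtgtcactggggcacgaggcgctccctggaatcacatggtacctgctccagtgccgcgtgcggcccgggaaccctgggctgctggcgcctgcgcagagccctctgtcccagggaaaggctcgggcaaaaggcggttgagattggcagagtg
Nr1d1 start 2, chr10:84229455-84229704, minus strand: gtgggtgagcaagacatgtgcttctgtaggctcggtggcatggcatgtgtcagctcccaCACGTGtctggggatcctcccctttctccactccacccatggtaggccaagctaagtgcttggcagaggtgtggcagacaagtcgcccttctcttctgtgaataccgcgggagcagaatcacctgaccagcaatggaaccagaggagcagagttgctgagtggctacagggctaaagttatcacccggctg

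The Arntl window held a RORE core whose first base lies 16 bases before the start. The Per2 window held an E-prime box 62 bases and a D-box 192 bases before the start. For Nr1d1, start 1 had an E-prime box on the opposite strand, 174 bases before it, and start 2 had an E-box 191 bases before it. In the windows of Per1, Per3, Dbp and Nr1d2 these letters did not occur, which says nothing of elements elsewhere in those genes. Of 33469 rat promoter windows of the same length, 5.59% held the E-box, 4.07% the E-prime box, 0.932% the D-box and 5.62% the RORE core, so the matches are a description and not evidence of binding.

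Library totals ranged from 22386526 to 36251990 counts. Levels are given as CPM, the count of a gene relative to its library's total after TMM scaling within each tissue, which sets the libraries of a tissue to a common typical gene. CPM of brain and LV are thus not on the same scale, and CPM of different genes are not compared, since longer genes collect more reads. At this depth the smallest level that 3 counts can show was between 0.0828 and 0.134 CPM, far under all 7 genes. SCM was compared with control by the quasi-likelihood test of edgeR, with Benjamini-Hochberg adjusted p-values over all genes of the tissue that were tested, 13954 in LV and 16002 in brain. A gene was called at an adjusted p under 0.05, and the study's own limits add an absolute log2 fold change over 2. Rats, not libraries of 1 rat, are the replicates, and the p-values judge differences against the spread between these rats.

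The LV library of control rat 5 stood apart from the other control LV libraries and is therefore treated first. Its median correlation with the 4 others of its group was 0.965, against 0.977 to 0.980 for those 4, and it had the fewest genes with a count among the controls (16705). When it was left out, 997 genes were called in LV instead of 727, and 41.7% of those 997 placed control rat 5 nearer to the SCM mean than to the mean of the other controls. For the other controls, left out in turn, that share was 6.92% to 28.8%. Its total of 31158110 counts was within the range of its group. Its Arntl and Dbp were just above the SCM range, and its Per3 and Nr1d2 just under it. The fold changes and correlations of the clock genes in LV are given with and without this rat, which was singled out after its values were seen. It was like LV and not like brain, since its 10 most abundant genes took 27.5% of its counts (27.2% to 33.0% in the other LV libraries and 7.76% to 11.1% in brain). Whether it belongs to the control group, as its label says, could not be checked here, so control LV means and fold changes over all rats rest on that label. Why it stood apart was not tested.

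Of the 7 genes, 2 were called in LV and both were lower in SCM, namely Dbp and Nr1d1. Of all genes tested there 5.21% were called, 2.88% lower and 2.33% higher. Without control rat 5, 5 genes were called, Arntl higher and Per3, Dbp, Nr1d1 and Nr1d2 lower, against backgrounds of 3.23% higher and 3.84% lower. Per1 and Per2 were not called either way. In brain 0 of the 7 were called.

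**Figure D1:**
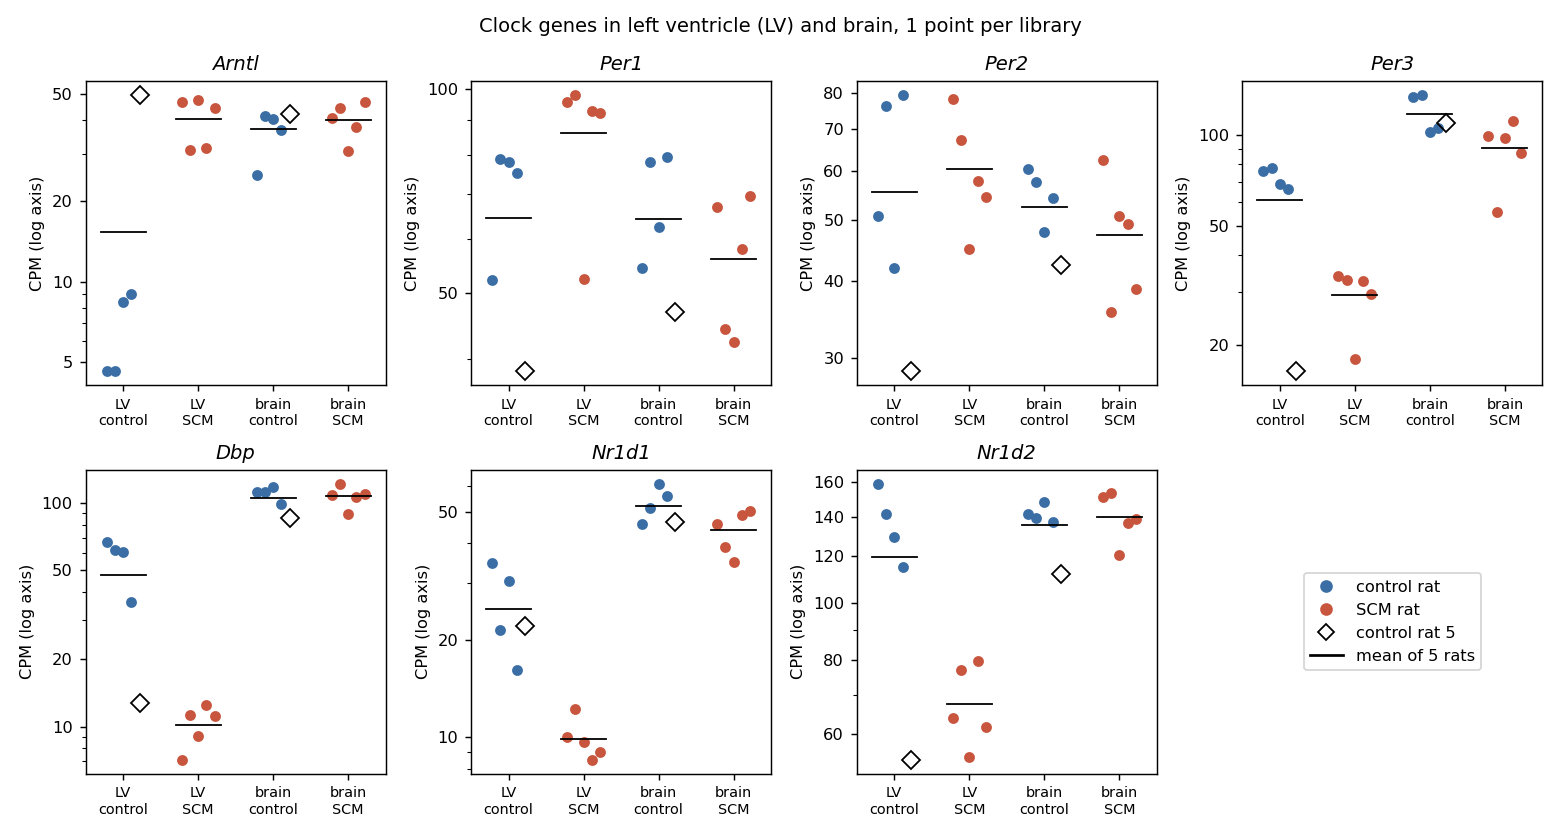
Level of each clock gene in CPM (log axis, scaled within each tissue) in the 4 groups. Each point is 1 library, the diamond is control rat 5 and the black line is the mean of 5 rats. In LV, Dbp and Nr1d1 of control and SCM rats do not overlap, Arntl, Per3 and Nr1d2 overlap only through control rat 5, and in brain all 7 genes overlap.

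Arntl, the activator of the loop, was low in 4 control LV libraries and high in that of control rat 5. In control LV its level was 4.63, 4.65, 8.41, 8.96 and 49.7 CPM in rats 1 to 5. In SCM LV it was 46.7, 31.1, 47.7, 31.6 and 44.3 CPM. Control rat 5 was thus above every SCM rat, while the other 4 controls were under all of them. With all 10 rats the log2 fold change was 1.40 ± 0.58 (SE, adjusted p = 0.175) and the gene was not called by edgeR, while limma-voom called it (adjusted p = 0.0316, 4.71% of all genes called). Means of log2(CPM + 0.5) differed by 1.97, with an exact two-sided permutation p of 0.0476. Leaving out control rat 5 gave a log2 fold change of 2.60 ± 0.24 (adjusted p = 0.000496), 6.05-fold higher in SCM and past both limits. It then ranked 8 of 14103 genes by p.

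Dbp, a clock output factor that acts on D-boxes, was lower in SCM LV. Its levels were 66.7, 61.5, 60.7, 36.1 and 12.8 CPM in control rats 1 to 5. The SCM rats had 7.09, 11.2, 9.05, 12.5 and 11.1 CPM. Every SCM rat was under every control, but control rat 5 lay just above the highest SCM rat. The log2 fold change was -2.22 ± 0.36 (SE, adjusted p = 0.00825), 4.66-fold lower, and passed both limits, as 0.229% of all genes did. Its exact permutation p was 0.00794, the smallest that 5 against 5 rats can give. Leaving out control rat 5 gave -2.46 ± 0.20 (adjusted p = 0.000208), rank 4 of 14103 by p, with 0.369% of all genes past both limits.

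Nr1d1, the REV-ERB alpha repressor of Arntl, was also lower in SCM LV. Control rats had 34.6, 21.5, 30.5, 16.1 and 22.1 CPM, and SCM rats 9.999, 12.3, 9.64, 8.52 and 9.01 CPM. The groups did not overlap, and here control rat 5 was in the middle of the controls. The log2 fold change was -1.34 ± 0.19 (SE, adjusted p = 0.0049), 2.53-fold lower, with an exact permutation p of 0.00794. It was almost the same without control rat 5, at -1.38 ± 0.21 (adjusted p = 0.00463).

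Nr1d2, the REV-ERB beta repressor, followed Nr1d1 in direction but was not called by edgeR in LV with all rats. Its levels were 159.3, 141.4, 129.4, 115.1 and 54.3 CPM in control LV and 63.8, 77.1, 54.9, 79.8 and 61.8 CPM in SCM LV. Control rat 5 had the lowest level of all 10 rats, and the other 4 controls were above every SCM rat. The log2 fold change was -0.83 ± 0.23 (SE, adjusted p = 0.0593), with an exact permutation p of 0.0476. It was called with all rats by DESeq2 (adjusted p = 0.00692, 11.8% of all genes called) and in 1 edgeR fit of all 20 libraries (adjusted p = 0.00686, 10.7% called). That fit had no rat block, although each rat gave a library from both tissues. It also pooled the spread of both tissues, and the SD of Nr1d2 between rats was 0.46 in LV and 0.15 in brain (log2). In the edgeR fit of LV alone the value was -1.01 ± 0.13 (adjusted p = 0.00256) and 2.02-fold lower when control rat 5 was left out.

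Among the Per genes, which encode the repressors that close the loop, Per3 was called by edgeR in the LV fit without control rat 5. It was not called in the LV fit of all rats. The fit of all 20 libraries, which had no rat block and pooled the spread of both tissues, called it (adjusted p = 0.021). Its control LV levels were 76.0, 77.5, 68.8, 66.1 and 16.4 CPM, and its SCM levels 34.0, 32.9, 18.0, 32.8 and 29.6 CPM. As for Nr1d2, control rat 5 was the lowest of all 10 rats and the other 4 controls were above every SCM rat. The log2 fold change was -1.05 ± 0.34 (SE, adjusted p = 0.0876), with an exact permutation p of 0.0635. It was -1.29 ± 0.16 (adjusted p = 0.00253), 2.45-fold lower, when control rat 5 was left out.

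Per1 had 52.2, 78.8, 77.9, 75.1 and 38.3 CPM in control LV and 95.7, 98.0, 52.4, 92.9 and 92.1 CPM in SCM LV. The SCM rats other than rat 3 were above every control, but the groups overlapped. The log2 fold change was 0.42, with a 95% interval of -0.05 to 0.89 (adjusted p = 0.269), and 0.28 without control rat 5 (interval -0.12 to 0.68, adjusted p = 0.369). Per2 had 50.8, 76.4, 41.9, 79.4 and 28.6 CPM in controls and 78.2, 67.2, 44.9, 57.7 and 54.4 CPM in SCM. Its log2 fold change was 0.13 (interval -0.42 to 0.67, adjusted p = 0.807) and -0.038 without control rat 5 (interval -0.49 to 0.41, adjusted p = 0.933). For both genes the intervals leave room for changes in either direction.

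**Figure D2:**
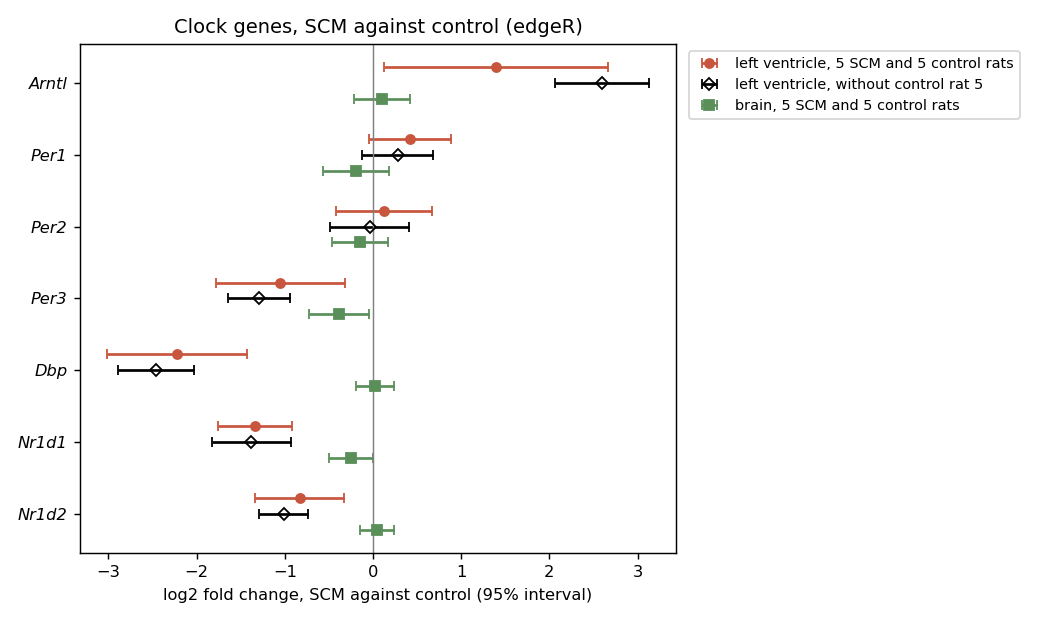
Log2 fold change of each clock gene, SCM against control, with its 95% interval from edgeR. Circles are LV with all 10 rats, diamonds LV without control rat 5 and squares brain with all 10 rats. Arntl moves from 1.40 to 2.60 in LV when control rat 5 is left out, Dbp and Nr1d1 are called either way, and the brain values lie between -0.38 and 0.11.

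The groups of Dbp and Nr1d1 did not overlap in LV, which was the case for 7.60% of all genes there. When control rat 5 was left out, those of Arntl, Per3 and Nr1d2 did not overlap either, 5 of the 7, against 12.3% of all genes. The permutation p of each of the 5 genes in LV was then 0.0159, the smallest that 4 against 5 rats can give. In brain the groups of all 7 overlapped, and those of 3.86% of all genes did not.

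In brain none of the 7 genes was called by edgeR, against 0.175% of all genes, and 2 had an unadjusted p under 0.05, as 14.3% of all genes did. Arntl was 24.9, 41.5, 40.4, 36.6 and 42.1 CPM in control brain and 40.6, 44.2, 30.7, 37.7 and 46.6 CPM in SCM brain, a log2 fold change of 0.11 (95% interval -0.21 to 0.42, adjusted p = 0.765). Dbp was 111.8, 112.4, 118.3, 99.4 and 86.2 CPM against 108.6, 122.4, 89.9, 106.4 and 109.7 CPM, a log2 fold change of 0.02 (interval -0.19 to 0.24, adjusted p = 0.930). For Dbp the intervals in brain and in LV with all rats (-3.01 to -1.43) did not overlap, while for Arntl that in LV (0.13 to 2.67) overlapped the one in brain. Nr1d2 gave 0.05 (interval -0.14 to 0.24, adjusted p = 0.832), with control levels of 111.9 to 148.2 CPM and SCM levels of 120.6 to 153.3 CPM.

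Per3 and Nr1d1 were the only members with an unadjusted p under 0.05 in brain. Per3 was 133.1, 135.8, 102.5, 105.7 and 109.6 CPM in controls and 99.1, 55.6, 97.9, 111.0 and 87.0 CPM in SCM. SCM rat 2 was the lowest and SCM rat 4 was above 3 of the controls. The log2 fold change was -0.38 ± 0.16 (SE, adjusted p = 0.301). Nr1d1, at 45.7 to 61.2 CPM in controls and 34.9 to 50.2 CPM in SCM, gave -0.25 ± 0.12 (SE, adjusted p = 0.343). Per1 (-0.19, interval -0.57 to 0.18) and Per2 (-0.15, interval -0.47 to 0.17) had adjusted p-values of 0.628 and 0.666. DESeq2 and limma-voom, like edgeR, called 0 of the 7 in brain, where they called 2.52% and 0.181% of all genes.

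Whether SCM and control differed by the same amount in LV and brain was tested by the tissue by SCM interaction, blocked by rat. Dbp was the only member called, with a log2 fold change in LV minus that in brain of -2.10 ± 0.33 (SE, adjusted p = 0.0186). Of all genes tested, 0.754% were called. The call was lost when control rat 1, 2 or 3 or SCM rat 1, 2 or 5 was left out, at adjusted p-values of 0.0509 to 0.0622 and values of -2.12 to -1.95. Without control rat 5 it was -2.42 (adjusted p = 0.000353), and 1.29% of all genes were called. Arntl gave 1.91 ± 0.51 (adjusted p = 0.118) and 2.43 without control rat 5 (adjusted p = 0.0023). Nr1d2 gave -0.83 ± 0.20 (adjusted p = 0.0833) and -1.02 without that rat (adjusted p = 0.00737). Nr1d1 gave -1.07 ± 0.25 (adjusted p = 0.082), -1.05 without control rat 5 (adjusted p = 0.0926) and -1.24 without control rat 4 (adjusted p = 0.0415). Per1 (0.60, adjusted p = 0.121), Per2 (0.34, adjusted p = 0.557) and Per3 (-0.55, adjusted p = 0.582) were not called. Without control rat 5 they were 0.54, 0.20 and -0.91 (adjusted p = 0.155, 0.715 and 0.109).

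A ratio of counts within 1 library does not depend on scaling. In control LV the log2 ratio of Arntl to Dbp counts was -3.85, -3.72, -2.85, -2.01 and 1.96 in rats 1 to 5. In SCM LV it was 2.72, 1.47, 2.40, 1.34 and 1.99, so that 4 controls lay under every SCM rat and control rat 5 within their range. Only the order of the libraries is read, since gene length also enters such a ratio. All 10 brain libraries lay between -2.16 and -1.04. The ratio of Arntl to Nr1d2 gave -5.10, -4.93, -3.94, -3.68 and -0.13 in control LV, -1.34 to -0.20 in SCM LV and -2.50 to -1.41 in brain. On both ratios the LV values spread on either side of the brain values.

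**Figure D3:**
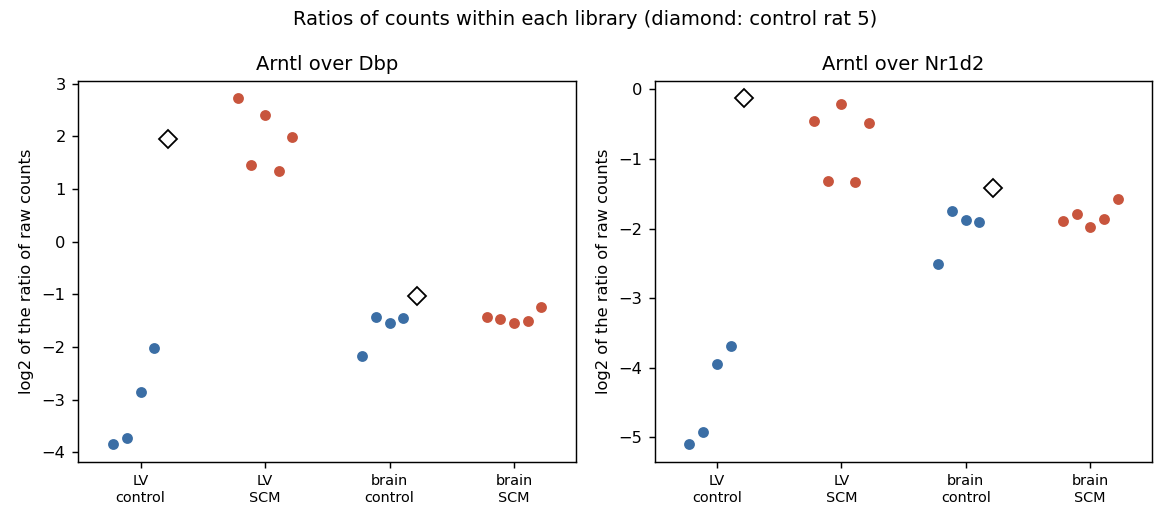
Log2 ratio of raw counts of Arntl to Dbp (left) and of Arntl to Nr1d2 (right) in each library, with the 4 groups on the horizontal axis. In LV, control rat 5 (diamond) and the SCM rats lie above all brain libraries. The other 4 control rats lie under them for Nr1d2 and, but for control rat 4 at -2.01, for Dbp.

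The order of the levels in both tissues was taken from fits of brain against LV within each group, with the rat as a block. Of all genes 79.7% were called in controls and 79.4% in SCM, and the fold changes depend on the scaling. They are therefore given as the difference from the median of all genes, which was 0.12 (log2) in controls and 0.16 in SCM and moved to 0.91 and 1.00 with scaling by library totals alone. Relative to that median, each gene had nearly the same value under both scalings, within 0.01.

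Relative to the median gene, Arntl was 0.99 higher in control brain than in control LV on the log2 scale (1.51 without control rat 5) and lower by 0.96 in SCM brain than in SCM LV, so its sign differed between the groups. Dbp was 0.38 higher in control brain (0.06 without control rat 5) and 2.45 higher in SCM brain. Nr1d1 was 0.15 higher in control brain (0.16 without control rat 5) and 1.18 higher in SCM brain. Per3 was 0.14 higher in control brain (but -0.23 without control rat 5) and 0.65 higher in SCM brain. Per1 was lower in brain in both groups, at -0.93 in controls and -1.57 in SCM, and Per2 likewise at -0.94 and -1.31. Nr1d2 was -0.70 in controls and 0.10 in SCM. The control values of Per1, Per2 and Nr1d2 without control rat 5 were -0.997, -1.08 and -0.89. In the unshifted fits, 4 genes were called in controls (Arntl, Per1, Per2 and Nr1d2) and all 7 in SCM, so a difference between brain and LV of control rats beyond their spread was not detected for Per3, Dbp and Nr1d1. With library totals alone, which called 83.5% of all genes in controls and 84.3% in SCM, the called members were Arntl, Per3, Dbp and Nr1d1 in controls and Per1, Per3, Dbp, Nr1d1 and Nr1d2 in SCM. The call of Arntl in controls (adjusted p = 0.048) was lost when control rat 1, 2, 3 or 4 was left out (adjusted p = 0.102 to 0.151) or without the rat block (adjusted p = 0.497). That of Nr1d2 in SCM (adjusted p = 0.0251) was lost without SCM rat 1, 3 or 5 (adjusted p = 0.0657 to 0.087) or without the block (adjusted p = 0.0553), and Nr1d1 in controls was called without control rat 1 (adjusted p = 0.0298).

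For Arntl, Dbp and Per3 the spread between rats was wide in control LV, mostly through control rat 5. The SD of deviations from the group mean of log2(CPM + 0.5), pooled over both groups, was 0.98, 0.73 and 0.72 for these genes. These are at percentiles 98.6, 96.8 and 96.6 of the 13954 genes, whose median was 0.24. In the controls alone the SD was 1.35, 0.98 and 0.94, and in the SCM rats 0.31, 0.31 and 0.38. The pooled values without control rat 5 were 0.39, 0.35 and 0.29, at percentiles 80.5, 74.3 and 64.7, and the median of all genes was 0.23. The other 4 members had 0.33 to 0.48 with all rats and 0.21 to 0.37 without control rat 5. In brain the 7 genes had 0.15 to 0.33, with a median of all genes of 0.20.

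Brain and LV of 1 rat share the animal, so the rats' deviations from their group means can be compared between the tissues. Over 10 rats Pearson's r was 0.75 for Per1 (exact permutation p = 0.012), 0.75 for Dbp (p = 0.0172) and 0.79 for Nr1d2 (p = 0.0269). Spearman's rho was 0.54 (exact p = 0.124), 0.70 (exact p = 0.0481) and 0.53 (exact p = 0.123). Adjusted over 13379 genes the p-values of r were 0.497, 0.5258 and 0.577, so none passed. The smallest permutation p that these rats can give is 6.94e-05. No gene could thus pass such an adjustment on its own, here or in the correlations below. Across all genes the median r was 0.13 and 62.6% were positive, 0 were called, and 1042 (7.79%) had an unadjusted p under 0.05. These 3 members were at percentiles 96.8, 96.8 and 97.8 of r, and at 91.2, 82.5 and 80.1 without control rat 5.

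**Figure D4:**
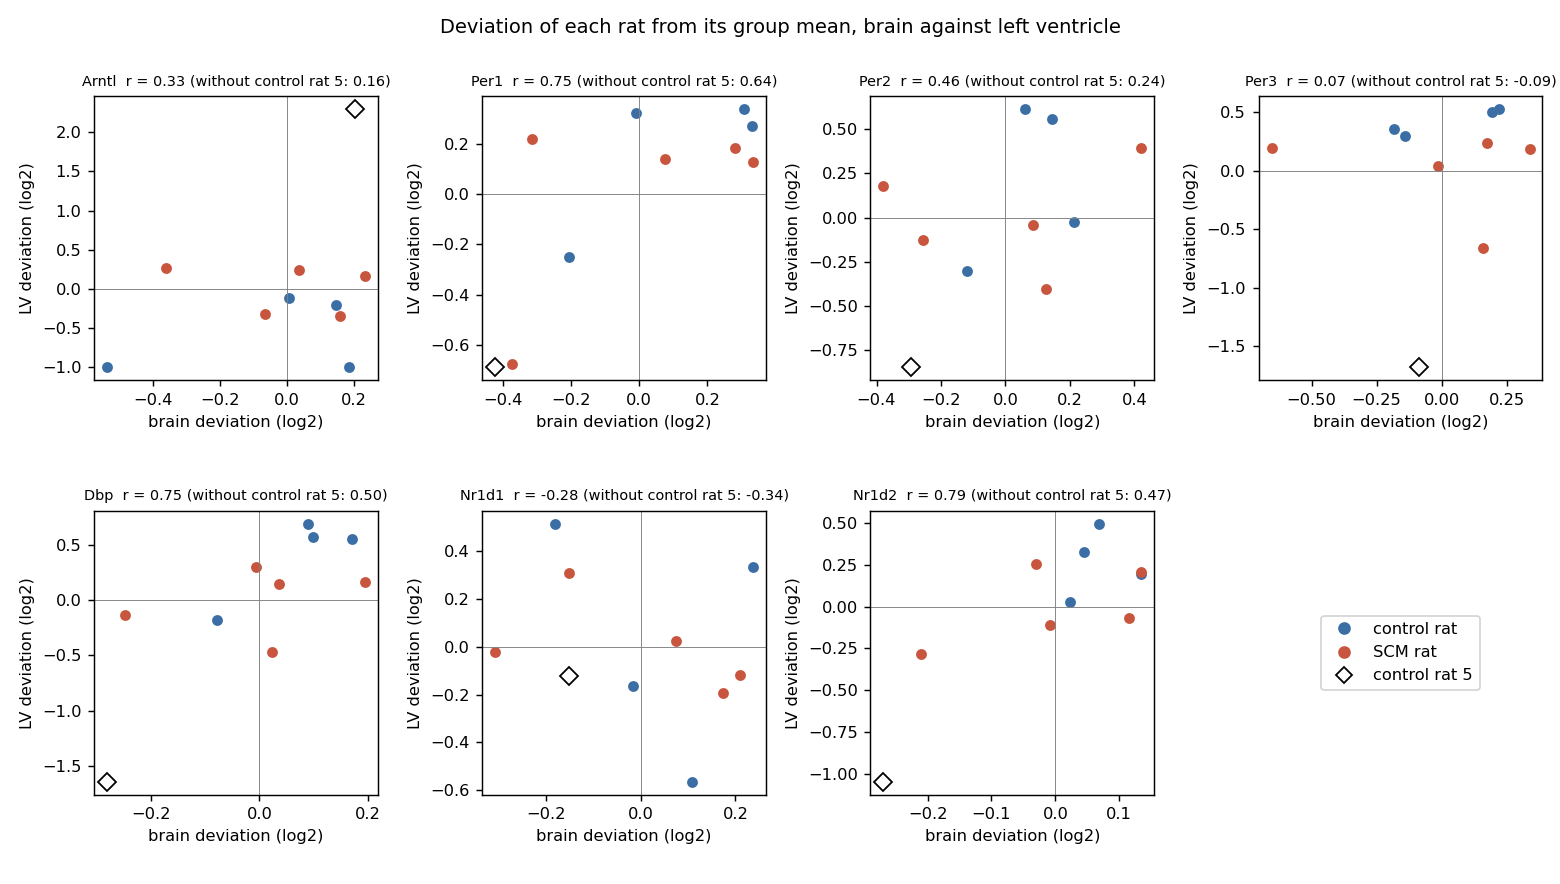
Deviation of each rat from its group mean (log2 scale), brain on the horizontal and LV on the vertical axis, 1 panel per gene. Points are rats and the diamond is control rat 5, which is at the lower left for Per1, Per2, Dbp and Nr1d2. Pearson's r is above each panel with and without that rat, and runs from -0.28 (Nr1d1) to 0.79 (Nr1d2).

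Control rat 5 carried part of this agreement. It had the lowest control level of Per1, Per2, Dbp and Nr1d2 in both tissues. Without it r was 0.64 for Per1, 0.50 for Dbp and 0.47 for Nr1d2, with exact permutation p-values of 0.0576, 0.155 and 0.279, and rho was 0.20, 0.22 and 0.40 (exact p = 0.658, 0.617 and 0.356). Without the 2 rats farthest from the median in brain, r was 0.43, 0.58 and 0.038, with exact permutation p-values of 0.314, 0.222 and 0.925. The relation of Nr1d2 thus rests on those rats, and those of Per1 and Dbp were weaker over the 8 rats left. Among the 5 control rats alone, for which no test was run, r was 0.90 for Per1, 0.97 for Dbp and 0.94 for Nr1d2. Among the 5 SCM rats it was 0.58, 0.298 and 0.58, so the agreement was closer in the group that holds control rat 5. Over the other 4 controls it was 0.78, 0.89 and 0.16. The difference between the groups was not tested. SCM rat 3 was low in both tissues for Per1, at 42.4 CPM in brain and 52.4 CPM in LV, each the lowest of its group.

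The remaining 4 genes had a lower r over the 10 rats, but the differences between genes were not tested and the order changed with the rats left out. Arntl had an r of 0.33 (rho 0.24), Per2 0.46 (rho 0.37), Per3 0.07 (rho 0.18) and Nr1d1 -0.28 (rho -0.26), with exact permutation p-values of r from 0.148 to 0.753 and of rho from 0.295 to 0.637. They were 0.16, 0.24, -0.087 and -0.34 without control rat 5 (rho 0.05, 0.05, 0.33 and -0.32), and without the 2 farthest rats 0.22, 0.47, 0.28 and -0.14. With each rat left out in turn, r ranged from 0.029 to 0.49 for Arntl and from 0.24 to 0.65 for Per2. For Per3 it ranged from -0.087 to 0.31 and for Nr1d1 from -0.58 to -0.085. Over 5 rats each, control and SCM rats had 0.47 and -0.29 for Arntl, 0.79 and 0.20 for Per2, 0.35 and -0.21 for Per3, and -0.18 and -0.56 for Nr1d1. The control values without rat 5 were 0.43, 0.44, 0.96 and -0.29. For Arntl, control rat 5 deviated by 2.29 in LV and by 0.20 in brain, so its high level was far from its group in LV only.

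Within LV, the deviations of Arntl ran against those of Nr1d2, Dbp and Per3, genes that ARNTL is known to activate. Pearson's r was -0.98 with Nr1d2, -0.95 with Dbp and -0.93 with Per3, with exact permutation p-values of 0.000556, 0.000694 and 0.00493. Spearman's rho was -0.98 (exact p = 0.00104), -0.89 (exact p = 0.000903) and -0.77 (exact p = 0.0178). None passed when adjusted over the 13953 other genes (adjusted p = 0.484, 0.484 and 0.535), and 0 of all genes did, although 1276 (9.14%) had an unadjusted p under 0.05. Here too no gene could pass on its own, so this outcome was largely set by the number of rats. The r of Nr1d2, Dbp and Per3 was at percentiles 0.0143, 0.1 and 0.272 of all genes, and at 0.115, 1.39 and 7.70 without control rat 5. The median over all genes was 0.00.

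Much of the range came from control rat 5, which deviated by 2.29 for Arntl and by -1.05, -1.64 and -1.68 for Nr1d2, Dbp and Per3. Without it r was -0.88 for Nr1d2 (exact permutation p = 0.00278), -0.71 for Dbp (p = 0.0344) and -0.49 for Per3 (p = 0.0792), each with an adjusted p of 1 over all genes. The smallest permutation p over these rats was 0.000347, so again no gene could pass on its own. Spearman's rho for these genes was then -0.73 (exact p = 0.00625), -0.78 (exact p = 0.0146) and -0.55 (exact p = 0.0542). Without the 2 rats farthest from the median of Arntl r was -0.85, -0.66 and -0.50, so the relation of Nr1d2 was the one that kept an exact permutation p under 0.05 (0.00694). Among the SCM rats Nr1d2 was lowest in rats 3, 5 and 1, those with Arntl from 44.3 to 47.7 CPM, and highest in rats 2 and 4, with Arntl at 31.1 and 31.6 CPM. In the control rats the order of Arntl was exactly the reverse of that of Nr1d2. Over 5 rats each, r in control and SCM rats was -0.99 and -0.95 for Nr1d2, -0.97 and -0.74 for Dbp, and -0.98 and -0.52 for Per3. Over the other 4 controls, without rat 5, it was -0.89, -0.699 and -0.98.

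Per1, Per2 and Nr1d1 had an r with Arntl in LV nearer to 0, though differences of r between genes were not tested. Their r was -0.61, -0.68 and -0.27, with exact permutation p-values of 0.0658, 0.0901 and 0.63, and rho was -0.50, -0.52 and -0.22 (exact p = 0.198, 0.178 and 0.602). When control rat 5 was left out r was -0.03, -0.13 and -0.36 (exact permutation p = 0.854, 0.721 and 0.417) and rho -0.20, 0.017 and -0.37 (exact p = 0.555, 0.979 and 0.401), and without the 2 farthest rats r was -0.37, -0.31 and -0.11. For Nr1d1, called lower in SCM together with Dbp, no relation with Arntl from rat to rat was detected in LV.

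**Figure D5:**
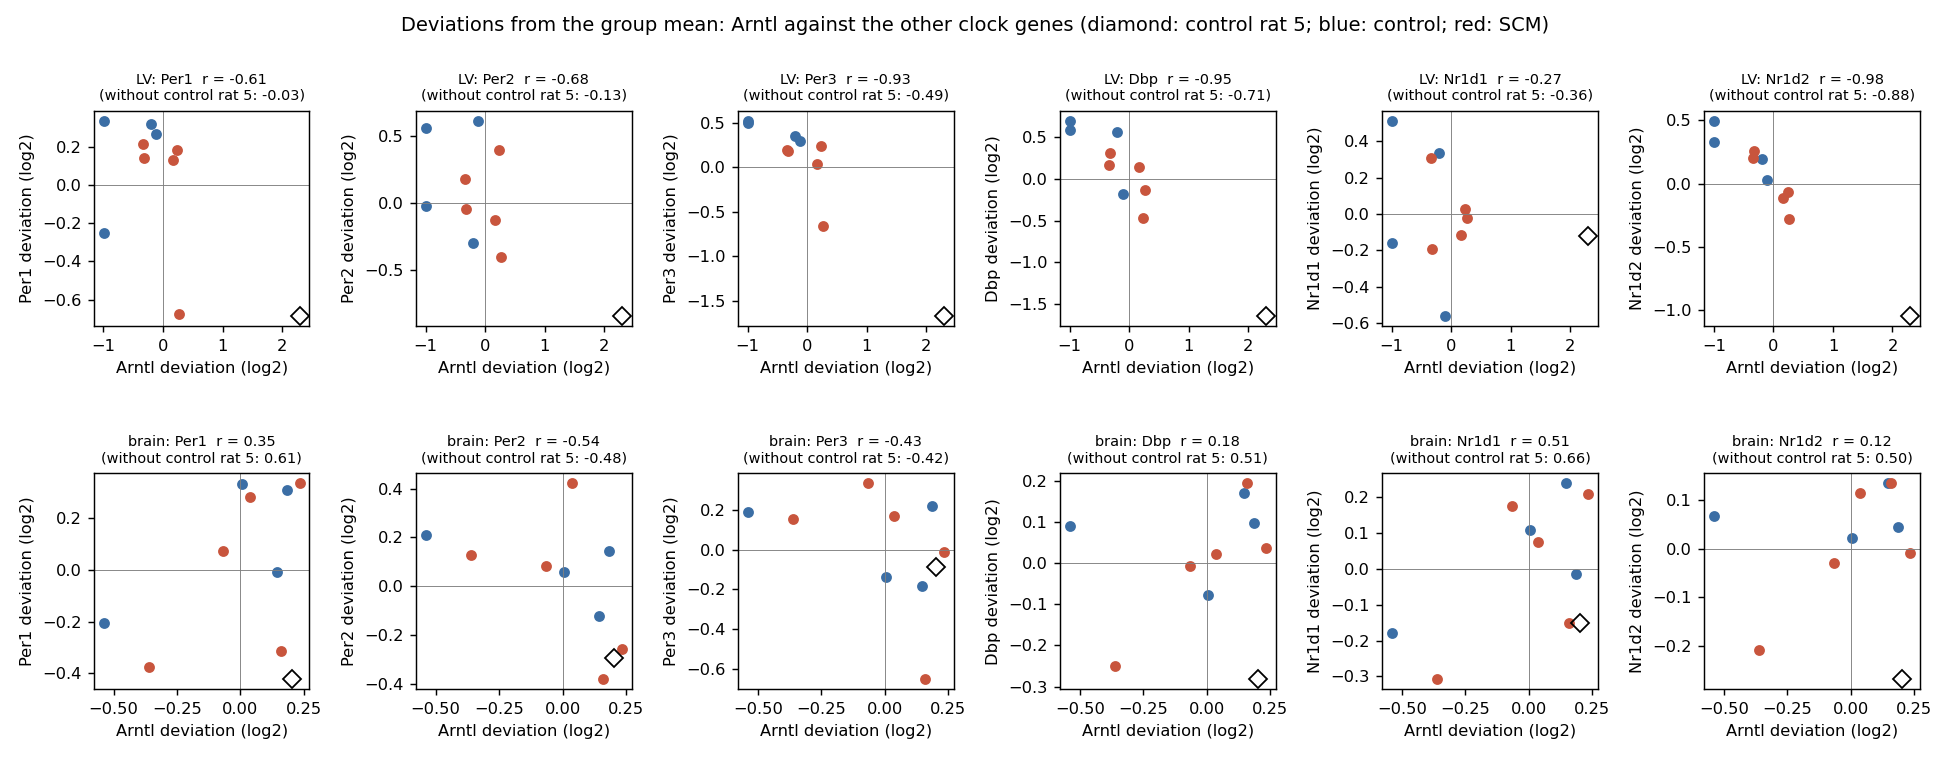
Deviation of each rat from its group mean (log2 scale) for Arntl on the horizontal axis and each other clock gene on the vertical axis, LV above and brain below. Each point is a rat and the diamond is control rat 5. In LV r is -0.98 for Nr1d2 and -0.95 for Dbp and stays negative without control rat 5, while in brain the 6 values of r run from -0.54 to 0.51.

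In brain the order of these relations was not the same. Pearson's r with Arntl was 0.35 for Per1, -0.54 for Per2, -0.43 for Per3, 0.18 for Dbp, 0.51 for Nr1d1 and 0.12 for Nr1d2, with exact permutation p-values from 0.107 to 0.771. Spearman's rho ran from -0.59 (Per2) to 0.37 (Nr1d1), with exact permutation p-values from 0.103 to 0.977. Of the 16001 other genes 0 passed the adjustment, which no gene could pass on its own, and 1673 (10.5%) had an unadjusted p under 0.05. The range of Arntl was small there, since 9 of 10 brains lay between 30.7 and 46.6 CPM and control rat 1 had 24.9 CPM. Leaving out the 2 rats farthest from the median, control rat 1 and SCM rat 3, turned r to -0.26 for Per1, -0.31 for Nr1d1 and -0.12 for Nr1d2. Within the groups, over 5 rats each and with no test, r in control and SCM brains was -0.28 and 0.88 for Dbp and -0.32 and 0.79 for Nr1d2, of opposite sign, but 0.081 and 0.11 in controls without rat 5. It had the same sign in both groups for Per1 (0.21 and 0.55), Per2 (-0.64 and -0.52), Per3 (-0.45 and -0.50) and Nr1d1 (0.45 and 0.61). Without control rat 5 the pooled r in brain was 0.61 for Per1, 0.51 for Dbp, 0.66 for Nr1d1 and 0.4975 for Nr1d2. It was -0.48 for Per2 and -0.42 for Per3. The exact permutation p-values then ran from 0.0691 to 0.235, and 16.4% of all genes had an unadjusted p under 0.05. The difference of r between the tissues or the groups was not tested.

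Over both tissues, the genes most like Arntl were ranked by the mean of r in LV and in brain among 13378 genes. The highest were ENSRNOG00000025143 (0.88 in LV, 0.92 in brain) and ENSRNOG00000036859 (0.89 and 0.86), and the lowest ENSRNOG00000007110 (-0.85 and -0.83) and ENSRNOG00000010853 (-0.77 and -0.87). These 4 have no name here and were chosen after their values were seen. No r of theirs passed the adjustment, with adjusted p-values of 0.447 in brain and 0.535 to 0.545 in LV. Their r in LV without control rat 5 was 0.53, 0.41, -0.59 and -0.28. Among the members Per3 was the least like Arntl by this measure, with a mean r of -0.68.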

How the data were processed

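Brain and left ventricle of 5 control and 5 SCM rats were sequenced. The values are raw counts of reads per gene, deposited in 1 table without normalization or pooling. The submitters' processing notes name HISAT2, StringTie and SAMtools and the build mRatBN7.2. The counting program and the strandedness are not given in the sources used here, so reads of overlapping genes could have been split or dropped. Groups and rats came from the sample labels. The members and gene lists were chosen with earlier results of these data known.

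Tests on the counts used edgeR 4.0.16 with R 4.3.3 (TMM, filterByExpr with a minimum count of 10 and a minimum total of 15). DESeq2 1.42.0 and limma 3.58.1 with voom were alternatives, as were RLE scaling, no filter or a stricter one, a single fit over both tissues, a replicate block, a pseudocount of 2 and leaving out each rat. For tissue comparisons, scaling by library totals was added after seeing the data, as were, for the correlations, rho and the control rats' r without control rat 5. Single genes were compared by exact permutation over rats of log2(CPM + 0.5), and correlations of deviations by all 14400 orders of rats within groups, with SciPy 1.17.1 and NumPy 2.4.6. Scripts were tested on simulated data. Intervals of 95% come from the edgeR fits, and the floor of 3 counts covers counting error only.

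Same-numbered control and SCM rats are different animals. Replicates were compared in 40 pairs within groups, and their squared differences were at least 11.6 times the sampling variance. The named genes were to be the 7 members, other clock, output, glucocorticoid and immediate-early genes and the genes most like Arntl. No table used here links Ensembl identifiers to symbols, so the further lists and the cell type markers were not analysed here, and the tissue labels were not checked against markers.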

Additional observations from a re-analysis of the deposited data

Results flagged for a closer look

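In 6 of 28 groups of 5 libraries (7 genes in 4 groups), 1 library lay apart from the others on the log2 scale by more than Dixon's 95% limit allows. Over all genes tested 3835 of 59912 such groups did, and chance flags about 1 in 20. Of the 6, 2 share the LV library of control rat 5 and 2 that of SCM rat 3, so they are not independent. In LV, control rat 5 had 49.7 CPM of Arntl against 4.63 to 8.96 CPM in the other controls, and 16.4 CPM of Per3 against 66.1 to 77.5 CPM. SCM rat 3 had 52.4 CPM of Per1 in LV against 92.1 to 98.0 CPM, and 18.0 CPM of Per3 against 29.6 to 34.0 CPM. In brain, control rat 1 had 24.9 CPM of Arntl against 36.6 to 42.1 CPM, and control rat 5 had 111.9 CPM of Nr1d2 against 137.1 to 148.2 CPM. The log2 fold change of Dbp, SCM against control, differed between the tissues by -2.10 (LV minus brain, edgeR adjusted p = 0.0186 for the interaction). This call was lost when any 1 of 6 rats was left out, as given with that result.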

How the results depend on the processing

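In LV, 2 clock genes (Dbp and Nr1d1) were called under RLE scaling, both filters and the replicate block. Of all genes 5.15% were called under RLE scaling, 3.09% with no filter, 6.23% with the stricter filter and 2.25% with the replicate block. DESeq2 called 3 (also Nr1d2, adjusted p = 0.00692), limma-voom 3 (also Arntl, adjusted p = 0.0316) and 1 fit of all 20 libraries 4 (also Per3 and Nr1d2, adjusted p = 0.021 and 0.00686). That last fit had no rat block and pooled the spread of both tissues. Leaving out each rat in turn gave 2 to 5, with 5 only without control rat 5, while 2.04% to 7.07% of all genes were called. For the interaction the count was 1, but 2 without the rat block (Dbp and Nr1d1), and 0 to 3 with a rat left out. Of all genes 1.70% were called without the block and 0.0593% to 1.29% with a rat left out. In LV, 11.8% were called with DESeq2, 4.71% with limma-voom and 10.7% in the fit of all libraries. In brain 0 clock genes were called throughout.

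The following signs turned in the tests across alternatives, and with the control or SCM rats alone 4 values of r did. With a rat left out, the log2 fold change of Per2 in LV ranged from -0.038 (without control rat 5) to 0.29. In brain that of Arntl ranged from -0.0081 (without control rat 1) to 0.19, that of Dbp from -0.040 (without control rat 5, and -0.027 without SCM rat 2) to 0.086 and that of Nr1d2 from -0.014 (without control rat 5) to 0.0999. Per3 of control brain against LV ranged from -0.099 (without control rat 5) to 0.39. The agreement of Per3 ranged from -0.087 (without control rat 5, and -0.011 without control rat 2) to 0.31. With library totals only, Nr1d2 of control brain against LV was 0.22 and Arntl of SCM brain against LV 0.041. For r with Arntl in brain, leaving out the 2 farthest rats gave -0.26 (Per1), -0.31 (Nr1d1) and -0.12 (Nr1d2), library totals gave -0.048 (Dbp) and -0.15 (Nr1d2), and rho was -0.018 (Nr1d2). With a rat left out r ranged from -0.17 to 0.55 (Dbp) and from -0.25 to 0.498 (Nr1d2), both lowest without SCM rat 3. With control rats alone r with Arntl in brain was -0.28 (Dbp) and -0.32 (Nr1d2), and with SCM rats alone the agreement was -0.29 (Arntl) and -0.21 (Per3). Without control rat 5, chosen after seeing the data, r with Arntl in LV was 0.51 for Per1 over the other 4 controls and rho was 0.017 for Per2. The cause was not tested.

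The replicate block left 2 clock genes called in LV (adjusted p = 0.0449 for Dbp and 0.0154 for Nr1d1) and 0 in brain, with 314 instead of 727 genes called in LV and 15 instead of 28 in brain. Deviations of same-numbered rats correlated between -0.08 and 0.15 in LV and between -0.22 and 0.14 in brain, so the numbers pair no rats. Over all genes, the counts called in LV were 1644 with DESeq2, 1789 in 1 fit and 287 to 997 with a rat left out, and in brain 403 with DESeq2 and 4 to 112 with a rat left out. With 5 rats a group, small changes of Per1 and Per2 could not be settled.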
